A study of Homo sapiens with 12 samples.

Results

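Transcripts of 10 integrin genes (ITGA1, ITGA2, ITGA3, ITGA5, ITGA6, ITGAV, ITGB1, ITGB4, ITGB5 and ITGB8) were followed across 4 groups of cultured human hepatoma cells. They were taken by symbol from the Ensembl identifiers of the expression table, and all 10 were found among 60664 identifiers. RNA was sequenced from MHCC-97H cells transfected with si-CENPU, a small interfering RNA against CENPU, from MHCC-97H cells with the control si-NC, and from Huh-7 cells with si-CENPU and with si-NC, in 3 libraries per group and 12 in all. CENPU encodes a subunit of the inner kinetochore. Both lines are labelled as hepatoma cells with the genotype WT in every group. The siRNA sequence and the time after transfection were not given in the sources used here. Whether the 3 libraries of a group stem from separate cultures is not labelled, and the p-values rest on the spread between these libraries, which may be technical.

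Integrins are cell surface receptors made of 1 alpha and 1 beta subunit, most of which join the extracellular matrix to the actin cytoskeleton. The alpha subunit largely sets the ligand, and most beta subunits carry a tail that binds talin and kindlin. ITGB1 pairs with ITGA1, ITGA2, ITGA3, ITGA5, ITGA6 and ITGAV. ITGB4 pairs with ITGA6 and anchors hemidesmosomes, whereas ITGB5 and ITGB8 pair with ITGAV and bind vitronectin and latent TGF-beta. In normal liver, hepatocytes carry few integrin types and bile duct cells more.

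The values were TPM, a transcript abundance scaled per transcript length and to a fixed total per library. Levels of different subunits can thus be set side by side, but TPM keeps no sequencing depth. The TPM columns summed to 998416 to 999065, with 18639 to 20900 identifiers above 0 per library. The targeted gene CENPU had 0.22, 0.45 and 0.24 TPM in MHCC-97H si-CENPU libraries, against 1.17, 0.83 and 0.89 TPM in MHCC-97H si-NC libraries. In Huh-7 it had 0.17, 0.11 and 0.45 TPM with si-CENPU, against 0.56, 0.84 and 0.53 TPM with si-NC. The groups did not overlap in either line, and all values were low. Among genes averaging at least 1 TPM, 6.95% in MHCC-97H and 7.65% in Huh-7 had siRNA groups without overlap. CENPU averaged under 1 TPM, so it was not in the gene-wide test used below. Of 10 hepatocyte markers, 0 reached a mean of 1 TPM in MHCC-97H, where their summed level was 1.3 to 1.68 TPM with si-CENPU and 0.74 to 1.08 TPM with si-NC. APOB was listed at 0 in all MHCC-97H libraries. All 10 passed it in Huh-7, with sums of 6383 to 7380 TPM with si-CENPU and 6741 to 7291 TPM with si-NC. The 5 biliary and progenitor markers summed to 522.6 to 615.1 TPM in MHCC-97H and to 212.2 to 271.7 TPM in Huh-7. KRT7 alone made the MHCC-97H sum the higher one, at means of 551.5 TPM with si-CENPU and 580.3 TPM with si-NC, against 0.27 and 0.07 TPM in Huh-7. The other 4 were lower in mean in MHCC-97H with either siRNA, among them KRT19 at 0.32 and 0.20 TPM, against 188.6 and 191.8 TPM in Huh-7. Endothelial markers reached at most 0.68 TPM in sum, and fibroblast and stellate cell markers 2.31 to 4.3 TPM in MHCC-97H and 5.67 to 7.47 TPM in Huh-7. Leukocyte markers summed to 0 to 0.23 TPM in MHCC-97H, against 14.57 to 16.57 TPM in Huh-7, where TYROBP averaged 11.21 TPM with si-CENPU and 11.44 TPM with si-NC. The part of these marker differences in the integrin differences between lines was not tested.

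**Figure D1:**
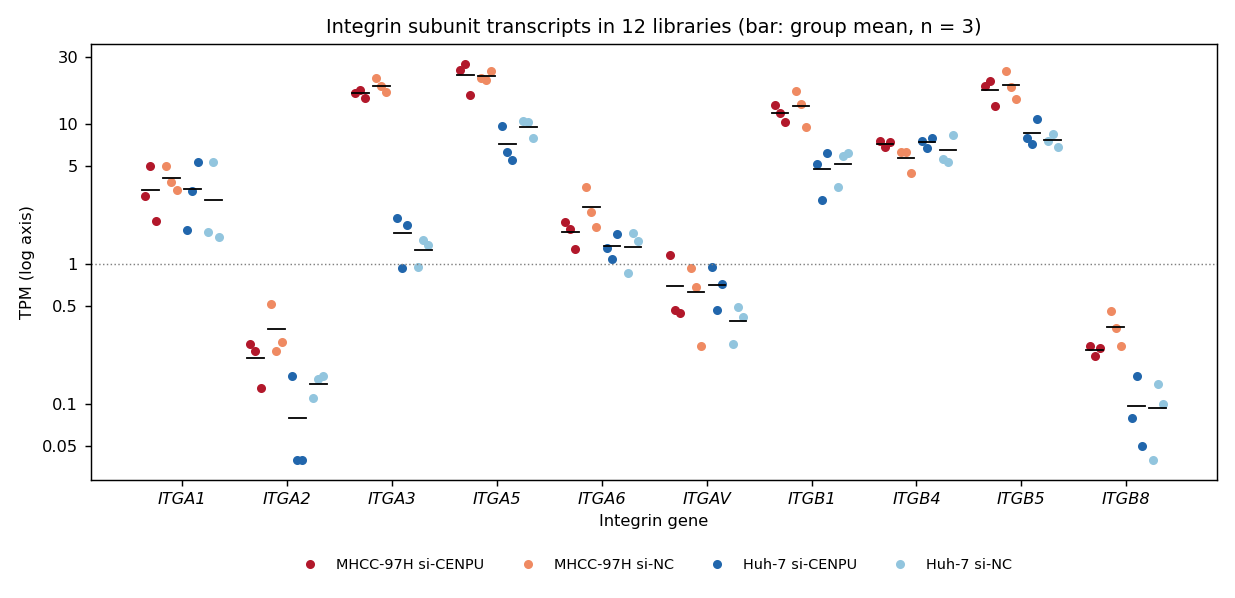
TPM of the 10 integrin genes (log axis), with 1 point per library and a bar at the mean of each group (n = 3). Within each gene the groups run from MHCC-97H si-CENPU to Huh-7 si-NC, and the dotted line marks the 1 TPM mean above which a gene was tested. ITGA3, ITGA5, ITGB1 and ITGB5 lie higher in all MHCC-97H libraries than in any Huh-7 library, while ITGB4 lies between 4.45 and 8.42 TPM in all 12.

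Among the 10 listed genes, ITGA5, ITGB5, ITGA3 and ITGB1 had the highest means in MHCC-97H, and ITGB5, ITGA5, ITGB4 and ITGB1 in Huh-7. Integrin genes outside the 10 could be higher: in Huh-7 ITGA2B averaged 58.4 TPM with si-CENPU and 62.02 TPM with si-NC, more than the 10 in sum. ITGAE, known as the E-cadherin receptor subunit of lymphocytes, averaged 21.87 TPM in MHCC-97H si-CENPU, 23.83 TPM in MHCC-97H si-NC, 17.32 TPM in Huh-7 si-CENPU and 14.25 TPM in Huh-7 si-NC. Both encode alpha subunits. The beta subunit genes outside the 10 were low: in Huh-7 ITGB3 averaged 0.73 TPM with si-CENPU and 0.4 TPM with si-NC. Group means of ITGB7 were at most 0.55 TPM, and those of ITGB2 and ITGB6 under 0.1 TPM. The 10 genes summed to 82.05 ± 13.2 TPM in MHCC-97H with si-CENPU and 87.3 ± 12.6 TPM with si-NC, and to 35.41 ± 5.71 TPM in Huh-7 with si-CENPU and 35.03 ± 4.14 TPM with si-NC (SD, n = 3 each). ITGA5, the alpha subunit of the fibronectin receptor, ranked first of the 10 in both MHCC-97H groups and in Huh-7 si-NC, and behind ITGB5 and ITGB4 in Huh-7 si-CENPU. In Huh-7 si-CENPU the neighbours in that order overlapped: ITGB5 spanned 7.21 to 10.91, ITGB4 6.72 to 7.92 and ITGA5 5.56 to 9.72 TPM. In MHCC-97H the top pair, ITGA5 and ITGB5, also overlapped in both groups. The beta subunits held 45.2% ± 2.07 of the summed TPM in MHCC-97H si-CENPU and 44.1% ± 4.69 in MHCC-97H si-NC, against 58.9% ± 3 in Huh-7 si-CENPU and 55.7% ± 6.12 in Huh-7 si-NC (SD, n = 3 each). ITGA3 alone held 20.5% ± 2.16 in MHCC-97H si-CENPU and 4.59% ± 1.3 in Huh-7 si-CENPU (SD, n = 3 each). ITGA2, ITGAV and ITGB8 averaged under 1 TPM over the 12 libraries, and the other 7 genes were tested.

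No integrin gene passed the test for a response to si-CENPU in either line. In bulk RNA, fewer cells with a transcript and less of it per cell cannot be told apart. Differences were taken on the scale log2(TPM + 1), which understates the change of low genes, and tested with limma over 11088 genes with Benjamini-Hochberg adjustment and a threshold of 0.05. In MHCC-97H 0 of 7 tested integrin genes were called, where 0.00902% of all tested genes were called. In Huh-7 0 of 7 were called, again beside 0.00902% of all tested genes. In each line 0 of 7 had an unadjusted limma p under 0.05, beside 3.42% of all tested genes in MHCC-97H and 4.57% in Huh-7. The members' median difference was -0.13 in MHCC-97H, beside -0.05 for all tested genes, and 0.15 in Huh-7, beside 0.01 for all tested genes.

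The laminin-binding subunits ITGA6 and ITGB4 gave the smallest limma p-values in MHCC-97H. ITGA6, which binds laminin with ITGB1 or ITGB4, had 1.99, 1.78 and 1.29 TPM in MHCC-97H si-CENPU libraries, against 3.53, 2.35 and 1.84 TPM in MHCC-97H si-NC libraries. The groups overlapped, and the log2 difference was -0.39 (limma SE 0.205, 95% interval -0.85 to 0.06, limma adjusted p = 1). ITGB4 (chr17:75721328-75757818, plus strand, GRCh38), the hemidesmosome subunit, had 7.54, 6.82 and 7.43 TPM with si-CENPU, against 6.34, 6.35 and 4.45 TPM with si-NC in this line. All 3 si-CENPU values lay above all 3 si-NC values, by a log2 difference of 0.31 (limma SE 0.168, 95% interval -0.06 to 0.68, adjusted p = 1). It was the 1 integrin gene of 10 whose groups did not overlap there, beside 6.95% of all tested genes. That share leaves out genes averaging under 1 TPM, such as ITGA2, ITGAV and ITGB8. ITGA3, the other laminin-binding alpha subunit, had 16.78, 17.67 and 15.37 TPM with si-CENPU, against 21.19, 18.59 and 16.84 TPM with si-NC in MHCC-97H, and these groups overlapped.

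In Huh-7 the fibronectin receptor subunit ITGA5 gave the smallest p. It had 9.72, 6.37 and 5.56 TPM in Huh-7 si-CENPU libraries, against 10.5, 10.29 and 7.93 TPM in Huh-7 si-NC libraries. Replicate 1 with si-CENPU lay within the si-NC values and the other si-CENPU libraries below them, with a log2 difference of -0.39 (limma SE 0.213, 95% interval -0.86 to 0.08, adjusted p = 1). In MHCC-97H the same gene had 24.42, 26.99 and 16.18 TPM with si-CENPU, against 21.43, 20.66 and 23.79 TPM with si-NC, and the interval of its log2 difference was -0.46 to 0.48. None of the 10 genes had groups that did not overlap in Huh-7, beside 7.65% of all tested genes, a share that again leaves out genes averaging under 1 TPM.

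ITGB1, the partner of 6 of the alpha subunits, had 13.63, 12.05 and 10.4 TPM in MHCC-97H si-CENPU libraries, against 17.27, 13.84 and 9.58 TPM in MHCC-97H si-NC libraries. In Huh-7 it had 5.16, 2.85 and 6.23 TPM with si-CENPU, against 3.57, 5.89 and 6.18 TPM with si-NC. The groups overlapped in both lines, and in each the log2 difference was -0.13 with a limma 95% interval of -0.73 to 0.46, so a change of up to 0.73 lower or 0.46 higher lay within the interval. ITGB5, the vitronectin receptor subunit, had 18.65, 20.19 and 13.4 TPM with si-CENPU, against 24.06, 18.38 and 15.12 TPM with si-NC in MHCC-97H. In Huh-7 it had 7.9, 7.21 and 10.91 TPM with si-CENPU, against 7.56, 8.57 and 6.81 TPM with si-NC, and both pairs of groups overlapped.

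ITGA1, a collagen receptor subunit, had the highest limma SE of the 7 tested genes on log2(TPM + 1), at 0.395. It had 3.08, 4.99 and 2.03 TPM in MHCC-97H si-CENPU libraries, against 5.03, 3.86 and 3.4 TPM in MHCC-97H si-NC libraries. In Huh-7 it had 1.74, 3.31 and 5.34 TPM with si-CENPU, against 1.7, 5.39 and 1.56 TPM with si-NC. Its interval reached from -1.14 to 0.6 in MHCC-97H and from -0.62 to 1.12 in Huh-7, the widest of the 7 tested genes in each line. The annotation places PELO within ITGA1 on the same strand. It also lists genes that overlap each other member except ITGA3, such as GALK1 on the opposite strand of ITGB4. Reads of overlapping genes cannot be told apart here.

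**Figure D2:**
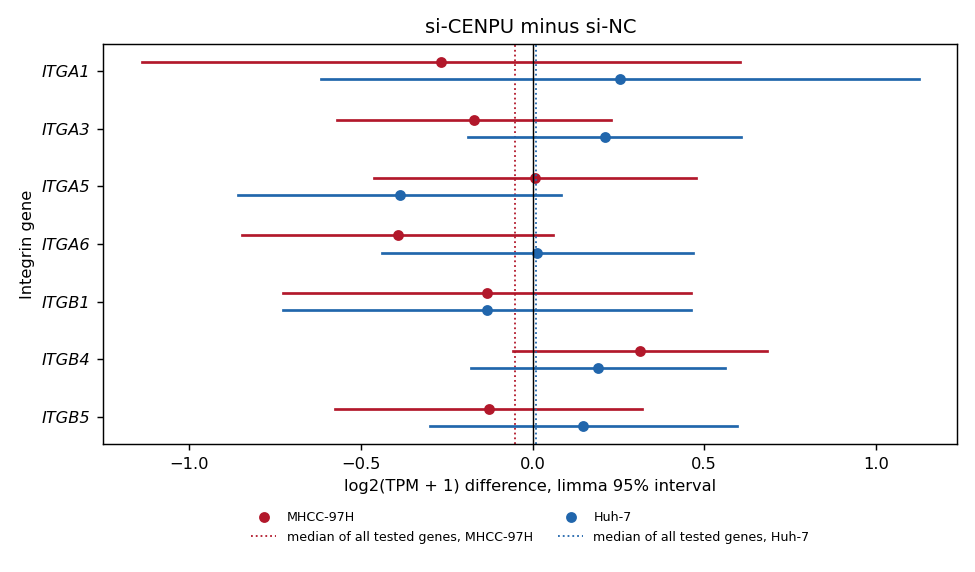
log2(TPM + 1) difference of si-CENPU minus si-NC for the 7 tested integrin genes, with limma 95% intervals, in MHCC-97H (upper, red) and Huh-7 (lower, blue). Every interval spans 0, and dotted lines mark the medians of all tested genes at -0.05 in MHCC-97H and 0.01 in Huh-7.

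Among the low genes, ITGAV, the alpha partner of ITGB5 and ITGB8, had 1.17, 0.47 and 0.45 TPM in MHCC-97H si-CENPU libraries, against 0.94, 0.69 and 0.26 TPM in MHCC-97H si-NC libraries. In Huh-7 it had 0.95, 0.47 and 0.72 TPM with si-CENPU, against 0.27, 0.49 and 0.42 TPM with si-NC, with 1 si-CENPU library inside the si-NC range (exact two-sided permutation p = 0.2, adjusted p = 0.4 over 12 tests). ITGA2, the second collagen receptor subunit, and ITGB8 stayed at or under 0.52 TPM in all 12 libraries, and their siRNA groups overlapped in both lines. An exact test of 3 against 3 cannot give a p under 0.1.

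The response to si-CENPU was also compared between the lines. Of 7 tested genes, 0 differed in response between MHCC-97H and Huh-7, beside 0.00902% of all tested genes called, and 0 of 7 had an unadjusted limma p under 0.05, beside 3.45% of all tested genes. The smallest unadjusted limma p was 0.164, for ITGA3, whose difference of responses was -0.38 (limma SE 0.255, 95% interval -0.94 to 0.18, adjusted p = 0.999).

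The level of integrin transcripts differed between the lines for ITGA3, ITGA5, ITGB1 and ITGB5 under both siRNAs. With si-CENPU these 4 of 7 tested genes were higher in MHCC-97H and 0 lower, beside 46.2% of all tested genes higher and 23.9% lower. With si-NC, ITGA6 was called as well, so that 5 of 7 were higher and 0 lower, beside 50.1% of all tested genes higher and 22.9% lower. The median difference of all tested genes was 0.40 with si-CENPU and 0.49 with si-NC, and the members' median was 0.93 with si-CENPU and 1.13 with si-NC. With si-CENPU, the median of all genes shrank to 0.09 with trimmed-mean scaling, 0.11 with quantile normalization and 0.02 with a correction for GC content, and the members' median to 0.55, 0.57 and 0.60. With si-NC, the median of all genes shrank to 0.11, 0.13 and 0.02 under the same 3 settings, and the members' median to 0.65, 0.69 and 0.45. Of all genes called with si-CENPU, 65.9% were higher in MHCC-97H as deposited, 52.5% with trimmed-mean scaling, 54.6% with quantile normalization and 51.1% with GC correction. With si-NC these shares were 68.6%, 53.8%, 55.2% and 51%. Differences of the integrin genes are given as deposited and less the median of all tested genes.

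ITGA3 (chr17:50055968-50090481, plus strand, GRCh38) showed the widest difference of the 7 tested genes. It had 16.78, 17.67 and 15.37 TPM in MHCC-97H si-CENPU libraries, against 2.14, 0.94 and 1.91 TPM in Huh-7 si-CENPU libraries. With si-NC it had 21.19, 18.59 and 16.84 TPM in MHCC-97H, against 0.95, 1.48 and 1.37 TPM in Huh-7. All 6 MHCC-97H values lay above all 6 Huh-7 values. The log2 difference was 2.75 with si-CENPU (limma SE 0.181, adjusted p = 8.46e-08, 9.98-fold in means), or 2.35 less the median of all genes, and 3.13 with si-NC (limma SE 0.181, adjusted p = 2.62e-08, 14.9-fold in means), or 2.64 less that median.

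ITGA5 (chr12:54395261-54419460, minus strand, GRCh38) and its partner ITGB1 (chr10:32900319-33005792, minus strand) were both higher in MHCC-97H. ITGA5 was 1.52 higher with si-CENPU (limma SE 0.213, adjusted p = 6.16e-05, 3.12-fold in means) and 1.13 higher with si-NC (adjusted p = 0.000588, 2.29-fold), which were 1.12 and 0.63 less the median of all genes. ITGB1 was 1.22 higher with si-CENPU (limma SE 0.27, adjusted p = 0.0018, 2.53-fold in means) and 1.22 higher with si-NC (adjusted p = 0.0017, 2.6-fold), or 0.82 and 0.73 less the median. ITGB5 was 0.93 higher with si-CENPU (limma SE 0.203, adjusted p = 0.00168, 2.01-fold in means) and 1.20 higher with si-NC (adjusted p = 0.000249, 2.51-fold), or 0.53 and 0.71 less the median. For each of the 3 genes every MHCC-97H library lay above every Huh-7 library. The calls held under trimmed-mean scaling, quantile normalization and GC correction, but the sizes shrank. ITGB1 was then 0.60 to 0.86 higher with si-CENPU and 0.45 to 0.80 higher with si-NC, ITGB5 0.55 to 0.67 and 0.74 to 0.86, and ITGA5 1.14 to 1.27 and 0.65 to 0.79.

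ITGA6 was called with si-NC alone, at a log2 difference of 0.60 (limma SE 0.205, adjusted p = 0.0199), but 0.11 less the median of all genes, and 0.20 with si-CENPU (adjusted p = 0.406), or -0.20 less the median, where GC correction turned it into a call in the other direction (-0.38, limma adjusted p = 0.00487). The si-NC call was lost with trimmed-mean scaling (0.29), quantile normalization (0.20) and in a fit of the compared groups alone (adjusted p = 0.0564), and the sign turned with GC correction (-0.12). It was also lost without Huh-7 si-NC replicate 1 (adjusted p = 0.0781) and without MHCC-97H si-NC replicate 1 (adjusted p = 0.0866). Over all alternatives the ITGA6 adjusted p ran between 0.00487 and 0.79 with si-CENPU and between 0.00817 and 0.302 with si-NC (limma). ITGB4 differed by -0.03 with si-CENPU and -0.15 with si-NC, or -0.43 and -0.64 less the median, and was not called, but it was called lower in MHCC-97H with trimmed-mean scaling (-0.39 and -0.58, limma adjusted p = 0.0313 and 0.00366) and quantile normalization (-0.39 and -0.59, limma adjusted p = 0.0294 and 0.00306). ITGA1, at -0.01 with si-CENPU and 0.52 with si-NC, or -0.41 and 0.02 less the median, was not called with either siRNA, and was called with si-NC without Huh-7 si-NC replicate 2 (0.94, limma adjusted p = 0.0349). Over all alternatives the limma adjusted p of ITGB4 ran between 0.0294 and 1 with si-CENPU and between 0.00306 and 0.988 with si-NC, and that of ITGA1 with si-NC between 0.0349 and 0.838.

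Among the low genes, ITGB8 had 0.26, 0.22 and 0.25 TPM in MHCC-97H si-CENPU libraries, against 0.08, 0.16 and 0.05 TPM in Huh-7 si-CENPU libraries, and 0.46, 0.35 and 0.26 TPM in MHCC-97H si-NC libraries, against 0.04, 0.14 and 0.1 TPM in Huh-7 si-NC libraries. The lines did not overlap with either siRNA (exact permutation p = 0.1, the smallest that 3 against 3 allows). ITGA2 did not overlap with si-NC, at 0.52, 0.24 and 0.28 TPM in MHCC-97H, against 0.11, 0.15 and 0.16 TPM in Huh-7. In all, 5 of 10 genes lay higher without overlap in MHCC-97H with si-CENPU, beside 49.3% of all tested genes, and 7 of 10 with si-NC, beside 49.6%. These shares leave out genes averaging under 1 TPM, which ITGA2, ITGAV and ITGB8 do. Of the 7 tested genes, ITGA3, ITGA5, ITGB1 and ITGB5 lay higher without overlap with either siRNA, and ITGA6 with si-NC alone.

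**Figure D3:**
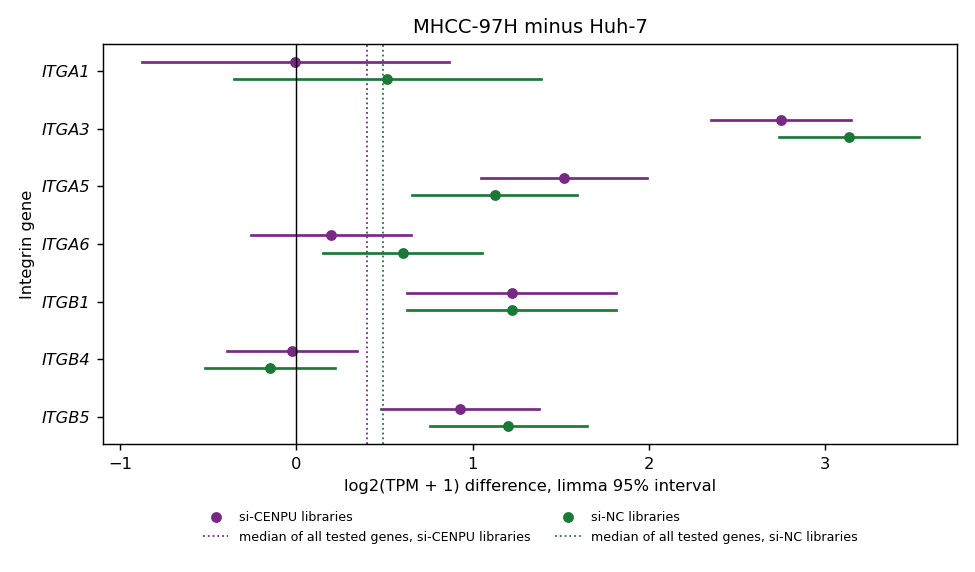
log2(TPM + 1) difference of MHCC-97H minus Huh-7 for the 7 tested integrin genes, with limma 95% intervals, in si-CENPU libraries (upper, purple) and si-NC libraries (lower, green). Dotted lines mark the medians of all tested genes at 0.40 and 0.49; the ITGA3 intervals lie farthest to the right, and ITGB4 lies near 0 as deposited but was called lower in MHCC-97H with trimmed-mean or quantile scaling.

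Promoter letters are shown for ITGB1 and ITGB5, the beta subunit genes that were higher in MHCC-97H in every alternative tried. The 250 bases before a RefSeq start (GRCh38.p14) are given 5′ to 3′ on the minus strand, at chr10:32958231-32958480 for ITGB1 and chr3:124901419-124901668 for ITGB5. Capitals mark the GC box GGGCGG on either strand.
ITGB1: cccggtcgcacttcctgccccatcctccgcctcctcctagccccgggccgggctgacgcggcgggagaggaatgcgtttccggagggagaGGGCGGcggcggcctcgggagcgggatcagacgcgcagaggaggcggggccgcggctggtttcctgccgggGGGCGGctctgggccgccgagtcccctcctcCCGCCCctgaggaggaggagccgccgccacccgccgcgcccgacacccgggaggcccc
ITGB5: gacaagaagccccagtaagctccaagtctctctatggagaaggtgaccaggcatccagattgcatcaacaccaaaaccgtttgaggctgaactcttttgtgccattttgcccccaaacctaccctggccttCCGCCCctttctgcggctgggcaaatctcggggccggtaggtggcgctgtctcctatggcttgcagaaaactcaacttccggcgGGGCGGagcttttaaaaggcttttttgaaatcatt
The ITGB1 window shown held 3 GC boxes and the ITGB5 window shown 2. Both genes had other windows, not shown, with 0 GC boxes for ITGB1 and with 3 and 0 for ITGB5. RefSeq gave 13 windows for 8 of the 10 genes, and 7 of the windows, in 6 genes, held a GC box, beside 42.6% of all 35116 windows of this length. The AP-1 letters TGANTCA, on either strand, were in 0 of the 13, beside 6.6% of all windows. Windows that also took in bases after the start were searched once these letters had been seen. With 25 bases more, 8 windows held a GC box and 1, of ITGA5, the AP-1 letters, beside 43.9% and 7.2% of all windows, and with 50 bases more the numbers were 9 and 1, beside 45% and 7.7%. The GC box windows belonged to ITGA2, ITGA5, ITGA6, ITGB1, ITGB5 and ITGB8, which include genes that did and did not differ between the lines.

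Ratios between subunits were also read per library, for partners and for the alpha subunits ITGA3 and ITGA6. ITGB4 exceeded ITGA6 and ITGB5 exceeded ITGAV in all 12 libraries. The ITGB4 to ITGA6 ratio of TPM was 3.79, 3.83 and 5.76 in MHCC-97H si-CENPU libraries, against 1.8, 2.7 and 2.42 in MHCC-97H si-NC libraries. These did not overlap, with a log2 ratio difference of 0.94 (exact two-sided permutation p = 0.1, the smallest possible), and this ratio was chosen after its values were seen. On log2(TPM + 1) the difference was 0.70, and 0.56 with GC correction. In Huh-7 the ratio was 5.86, 6.22 and 4.83 with si-CENPU, against 6.58, 3.22 and 5.73 with si-NC, and overlapped. The ITGB5 to ITGAV ratio was 8.32, 15.3 and 15.2 in Huh-7 si-CENPU libraries, against 28, 17.5 and 16.2 in Huh-7 si-NC libraries. Its exact p of 0.1 was also the smallest possible, and the ratio overlapped between siRNAs in MHCC-97H. It rests on a low denominator, as ITGAV lay between 0.27 and 0.95 TPM in Huh-7. The ratios were not among the planned tests, and no share over all gene pairs is given beside them. The ratio of ITGA5 to its partner ITGB1 overlapped between siRNAs in both lines (exact two-sided permutation p = 0.7 in each). The ITGA3 to ITGA6 ratio was 8.43, 9.93 and 11.9 in MHCC-97H si-CENPU libraries, against 1.65, 0.87 and 1.16 in Huh-7 si-CENPU libraries.

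Single libraries deviated from the mean of their line along the GC content of transcripts. Across genes, which are not independent replicates, the Spearman rho of deviation with GC content lay between -0.516, in the first MHCC-97H si-NC library, and 0.456, in the third. Of the 7 tested integrin genes, 5 lay above the line mean in MHCC-97H si-NC replicate 1. The same number did in MHCC-97H si-NC replicate 2 (rho -0.238) and MHCC-97H si-CENPU replicate 2 (rho 0.052). There was 1 in MHCC-97H si-NC replicate 3, MHCC-97H si-CENPU replicate 3, Huh-7 si-CENPU replicate 2 and Huh-7 si-NC replicate 1. There were 4 in replicate 1 of both si-CENPU groups and 3 in Huh-7 si-NC replicate 3. In Huh-7 si-CENPU replicate 3 and Huh-7 si-NC replicate 2 there were 6. Integrin transcripts spanned 37.8% GC for ITGB8 to 63.7% for ITGB4, around a median of 51.7% for tested genes. The part of this trend in the siRNA differences was not tested, beyond the GC-corrected fit, in which 0 of 7 genes were called in either line.

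**Figure D4:**
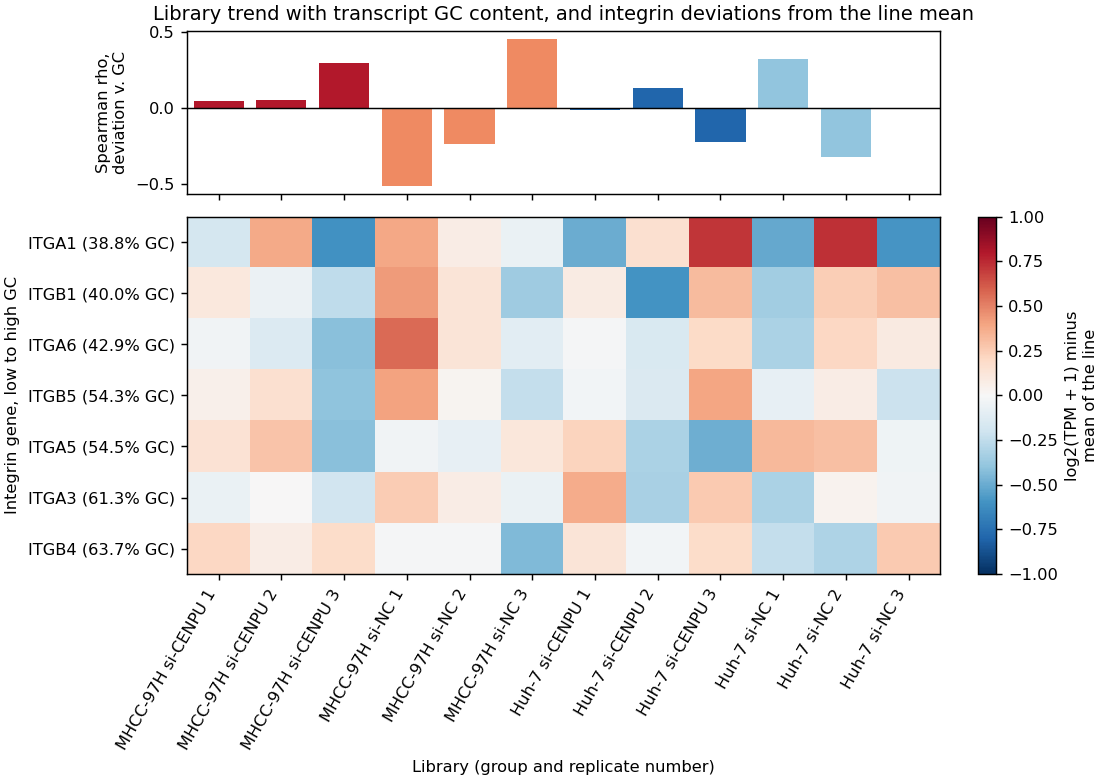
Upper panel: Spearman rho between each gene's deviation from the line mean and its transcript GC content, 1 bar per library. Lower panel: deviation of the 7 tested integrin genes from the mean of their line on log2(TPM + 1), ordered by GC content; ITGA6 stands above the line mean in MHCC-97H si-NC replicate 1, the library with the most negative rho, and below it in MHCC-97H si-CENPU replicate 3.

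The genes around the integrins were read from lists of their ligands, linkers and partners. With si-CENPU against si-NC, 0 genes were called by limma in each of the 5 lists in either line, and 1 of 71 tested list genes per line had an unadjusted limma p under 0.05, beside 3.42% of all tested genes in MHCC-97H and 4.57% in Huh-7. The smallest unadjusted p in Huh-7 was that of CD63, a tetraspanin that associates with integrins, with 720.91, 1008.63 and 848.52 TPM with si-CENPU, against 621.49, 644.44 and 694.12 TPM with si-NC (log2 difference 0.38, limma adjusted p = 0.831). In MHCC-97H it was that of LAMB2, a laminin chain, with 5.59, 5.14 and 9.41 TPM with si-CENPU, against 5.09, 4.41 and 4.11 TPM with si-NC (log2 difference 0.44, limma adjusted p = 1).

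Between the lines, the list counts are read beside all tested genes, of which 46.2% were higher and 23.9% lower in MHCC-97H with si-CENPU and 50.1% higher and 22.9% lower with si-NC. Of 23 tested ligands, 10 were higher and 11 lower in MHCC-97H with si-CENPU, and the same numbers with si-NC. Fibronectin FN1, the ligand of ITGA5 with ITGB1, had 0.48, 0.02 and 0.16 TPM in MHCC-97H si-CENPU libraries, against 88.81, 74.22 and 104.07 TPM in Huh-7 si-CENPU libraries. Vitronectin VTN, the ligand of ITGAV with ITGB5, had 6.21, 6.43 and 5.9 TPM in MHCC-97H, against 474.86, 443.14 and 484.68 TPM in Huh-7, also with si-CENPU. Collagen chain COL4A2 had 64.55, 79.97 and 60.29 TPM in MHCC-97H, against 0.37, 1.3 and 0.71 TPM in Huh-7, again with si-CENPU. With si-NC, FN1 and VTN were also lower in MHCC-97H and COL4A2 higher (limma log2 differences -6.12, -6.18 and 5.03, or -6.62, -6.67 and 4.53 less the median of all genes).

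Of 23 tested focal adhesion linkers and kinases, 13 were higher in MHCC-97H and 1 lower, with either siRNA, a share of higher genes near that of all tested genes. LIMS2, a LIM-domain adaptor of the ILK complex, had 24.45, 25.24 and 21.94 TPM in MHCC-97H si-CENPU libraries, against 1.37, 1.76 and 1.44 TPM in Huh-7 si-CENPU libraries. PXN, which encodes the adaptor paxillin, had 64.7, 81.24 and 56.07 TPM in MHCC-97H, against 10.56, 8.16 and 9.16 TPM in Huh-7 with si-CENPU. The 1 lower gene with si-NC was TLN1, talin, the linker from integrin tails to actin (limma log2 difference -0.84, or -1.33 less the median, adjusted p = 0.000271). Of 10 inhibitors and trafficking adaptors, 4 were higher with si-CENPU, under the 46.2% of all tested genes, and 7 with si-NC, beside 50.1%, and 0 were lower. FLNA, filamin, which competes with talin for integrin tails, had 305.16, 321.31 and 259.23 TPM in MHCC-97H, against 0.12, 0.06 and 0.07 TPM in Huh-7 with si-CENPU. ITGB1BP1, which binds the ITGB1 tail, had 32.08, 30.36 and 21.92 TPM in MHCC-97H, against 3.86, 2.78 and 5.68 TPM in Huh-7 with si-CENPU.

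Of 12 lateral partners and hemidesmosome genes, 9 were higher in MHCC-97H and 1 lower with si-CENPU, and 9 and 0 with si-NC. PLEC, plectin, which binds ITGB4 in hemidesmosomes, had 43.66, 54.5 and 41.08 TPM in MHCC-97H, against 7.19, 5.57 and 10.95 TPM in Huh-7 with si-CENPU. PLAUR and CD82 of this list differed more. DST, also listed, was not called (log2 difference 0.069 with si-CENPU and 0.149 with si-NC, limma adjusted p = 0.8 and 0.572). COL17A1 averaged at most 0.08 TPM in any group and was not tested. Of 16 other integrin subunits, 3 were tested. ITGA2B, the platelet fibrinogen receptor subunit, had 0.16, 0.46 and 0.22 TPM in MHCC-97H si-CENPU libraries, against 61.87, 53.78 and 59.56 TPM in Huh-7 si-CENPU libraries. ITGAD, a leukocyte subunit, had 7.82, 6.66 and 5.96 TPM in MHCC-97H with si-CENPU and was listed at 0 in all 6 Huh-7 libraries. The list medians with si-NC were 0.90 for linkers, 0.82 for lateral partners, 0.70 for inhibitors and adaptors and -0.34 for ligands, beside 0.49 for all tested genes.

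Genes whose pattern over the 12 libraries was closest to an integrin gene were found by the root mean square difference of centred log2(TPM + 1). For ITGB1 they were CDV3 (0.0934), DSP (0.108) and SLC25A4 (0.11), where the median over all tested genes was 0.591. For ITGA5 they were SPACA9 (0.199), B4GALT2 (0.204) and SIVA1 (0.206), beside a median of 0.651. For ITGA3 they were PRELID3B (0.167), CIZ1 (0.173) and VWA5A (0.175), beside a median of 1.29. These values describe the same libraries and the same difference between lines.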

How the data were processed

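The deposited values were TPM, with a column for each library. HISAT2, StringTie and GRCh38.p13 are named per the submitters' processing notes; annotation release and strand setting: not given in the sources used here. TPM keeps no depth, so no counting interval is given, and an exact 0 can be a failed estimate. Groups came from the sample titles. Symbols were matched for 60447 of 60664 identifiers, and GC content, positions and overlaps came from GENCODE release 29 on GRCh38, with a GC value for 98.9% of tested genes. Genes with a mean of at least 1 TPM (11088) were fitted with limma 3.58.1 in R 4.3.3 on log2(TPM + 1), with 1 mean per group over all 12 libraries and a mean-variance trend, two-sided, adjusted over all tested genes with a threshold of 0.05. ITGA2, ITGAV and ITGB8 were compared by exact permutation tests. Scripts were tested on simulated data. The members and gene lists were chosen with earlier results of these data known.

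Named genes were all 10 integrin genes and CENPU, per list up to 3 genes with the smallest adjusted p of each siRNA comparison or the largest called difference between lines, and the 3 genes most like ITGB1, ITGA5 and ITGA3. Some are given by count alone. Tried beside this were pseudocounts 0.1 and 0.5, testing all genes, a mean of at least 5 TPM, trimmed-mean and quantile scaling, rescaling without the 100 most abundant genes, GC correction, other fits and leaving out each library. Plots used matplotlib 3.10.9 and Python 3.11.15.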

Additional observations from a re-analysis of the deposited data

How the results depend on the processing

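The counts of called integrin genes stayed at 0 in both siRNA comparisons and in the difference of responses under every alternative tried. Between lines, counting calls in either direction, they lay between 4 and 5 with si-CENPU and between 4 and 7 with si-NC. Where all genes were tested, the counts also covered ITGA2, ITGAV and ITGB8, and the 7 was reached only there. Leaving out 1 library, the si-NC count lay between 4 and 6. ITGA3, ITGA5, ITGB1 and ITGB5 were called higher in MHCC-97H under all alternatives. Some signs turned, and the cause was not tested. For si-CENPU against si-NC in Huh-7, ITGA6 became -0.009 with quantile normalization and -0.014 with GC correction. For MHCC-97H against Huh-7 with si-NC, GC correction gave -0.255 for ITGA1 and -0.118 for ITGA6. With si-CENPU, ITGA6 became -0.05 with trimmed-mean scaling, -0.124 with quantile normalization and -0.38 with GC correction (limma adjusted p = 0.00487), and ITGA1 became 0.005 with a pseudocount of 0.1.

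Leaving out 1 library at a time, si-CENPU differences in Huh-7 lay between -0.041 and 0.681 for ITGA1, -0.141 and 0.12 for ITGA6, -0.34 and 0.132 for ITGB1, and -0.012 and 0.257 for ITGB5. In MHCC-97H they lay between -0.133 and 0.219 for ITGA5, -0.345 and 0.049 for ITGB1, and -0.279 and 0.04 for ITGB5. The difference of responses lay between -0.264 and 0.208 for ITGB1 and -0.055 and 0.227 for ITGB4. Between lines, ITGB4 lay between -0.087 and 0.018 with si-CENPU and -0.252 and 0.03 with si-NC, and ITGA1 between -0.316 and 0.289 with si-CENPU. The ITGB4 to ITGA6 difference between siRNAs was taken here on log2(TPM + 1), not on the TPM ratio. It lay between -0.034 and 0.304 in Huh-7 and between 0.58 and 0.81 in MHCC-97H.

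With the replicate number as a block, 0 members were called in each siRNA comparison, and between lines 4 with si-CENPU and 5 with si-NC. Same-numbered libraries of different groups correlated between -0.121 and 0.134 in their deviations from the group means, and differently numbered ones between -0.116 and 0.157. Not every library correlated best with its own number. These values do not show that the numbers pair the libraries. With group means of 3 libraries they cannot exclude it either.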
